A study of Mus musculus with 6 samples.

Results

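The 9 enzymes described here are those of serine synthesis (Phgdh, Psat1 and Psph), of the cytosolic folate pathway (Shmt1 and Mthfd1) and of the mitochondrial folate pathway (Shmt2, Mthfd2, Mthfd1l and Aldh1l2). They were chosen by name, for their place in these pathways and with earlier results of these data known, and are 9 of 25690 gene symbols. All 9 were among the 15474 genes with enough counts for a test. RNA of CD27SP NK cells, the immature NK1.1+ CD27+ CD11b- subset, had been sequenced from BM. Of the 6 libraries, 3 came from Ncr1cre Myc wt/wt mice (wt/wt below) and 3 from Ncr1cre Myc fl/fl mice (fl/fl below), each with the replicate numbers 1, 2 and 4. The mice were on a C57BL/6 background and matched for age and sex. Both genotypes carry the Ncr1cre allele, which expresses Cre recombinase from the locus of the NK cell receptor NKp46, and in fl/fl mice Cre deletes the floxed Myc alleles once a cell begins to express NKp46. A cell that has not yet expressed NKp46, or another cell type in the sort, therefore keeps Myc. Neither the labels nor the methods say whether a library comes from 1 mouse or from several.

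Serine is made from the glycolytic intermediate 3-phosphoglycerate in a chain of oxidation, transamination and dephosphorylation. Serine hydroxymethyltransferases then split serine into glycine and a one-carbon unit carried by tetrahydrofolate. Cytosol and mitochondria each hold a set of folate enzymes that interconvert these units, and the mitochondrial set sends formate to the cytosol, where the units are used for purines, thymidylate and methionine. In dividing lymphocytes these enzymes are known to be induced upon activation, and several of them are textbook targets of Myc and of the amino acid stress factor ATF4.

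8 of the 9 enzymes had less mRNA in every fl/fl library than in any wt/wt library, whereas 15.1% of all tested genes did so. The same 8 were lower at an unadjusted p below 0.05, against 10.2% of tested genes. Phgdh, Psat1, Shmt1 and Mthfd1 fell past the threshold, an adjusted p below 0.01 and a log2 fold change of at least 0.5 in edgeR's quasi-likelihood test with Benjamini-Hochberg adjustment. That is 4 of 9 enzymes against 0.872% of tested genes lower past it. No enzyme was higher past the threshold, against 1.28% of tested genes, and none was higher at an unadjusted p below 0.05 or by DESeq2. The median log2 fold change of the 9 enzymes was −0.70, beside 0.01 over all tested genes. By step, 2 of 3 serine synthesis enzymes, 2 of 2 cytosolic and 0 of 4 mitochondrial folate enzymes passed, and DESeq2 called 1 of the 4 mitochondrial enzymes (Shmt2), against 3.54% of tested genes lower in DESeq2. At an unadjusted p below 0.05 in edgeR, 3 of the 4 mitochondrial enzymes were lower. A bulk measurement cannot tell fewer cells of a type from less RNA per cell.

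The libraries set limits to these comparisons. The estimated counts summed to 8101219 in wt/wt library 1 and to between 54550907 and 64962491 in the other 5 libraries, so that library 1 is the least precise. Myc itself, the check of the genotype, had 164.3 to 200.5 counts per Mio (CPM, TMM-normalized) in wt/wt and 61.5 to 76.5 CPM in the fl/fl group, a log2 fold change of −1.44 (adjusted p = 0.0019, edgeR). Of 11 NK cell markers, none passed the threshold in either direction, with a median log2 fold change of 0.07. In edgeR, 1 of the 11 was lower and 1 higher at an unadjusted p below 0.05, near the 10.2% and 12.4% of all tested genes, and DESeq2 called 1 lower, against 3.54%. Markers of other BM cells were higher in fl/fl libraries, where the summed level of 8 basophil and mast cell markers was 120.4 to 329.6 CPM against 14.8 to 18.4, and 7 of 8 passed, against 1.28% of tested genes higher past the threshold. For granulocyte-monocyte progenitors and neutrophils the sum was 542.9 to 906.8 against 86.0 to 140.8 CPM, and 5 of the 9 tested of 10 passed, while 4 of 5 monocyte markers passed. Of 5 erythroid markers none passed in edgeR, although all 5 were higher at an unadjusted p below 0.05, against 12.4% of tested genes, and DESeq2 called 3 higher, against 4.17%. The monocyte sum was 2085 to 2370 CPM against 1659 to 1865, and the erythroid sum 523.1 to 1135 CPM against 42.7 to 278.1. Most of the monocyte sum was Ccr2, the marker that did not pass, at a mean of 1855 CPM in fl/fl and 1561 CPM in wt/wt libraries. The monocyte markers that passed had log2 fold changes from 0.83 (Ly6c2) to 2.08 (F13a1). No B cell or T cell marker passed, with sums of 11.4 to 14.5 against 4.55 to 8.37 CPM and of 271.7 to 355.8 against 252.3 to 506.6 CPM. In edgeR, 2 of 4 B cell markers were higher at an unadjusted p below 0.05, and of 4 T cell markers 2 were higher and 1 lower, against 12.4% higher and 10.2% lower of all tested genes, while DESeq2 called 0 of either list. wt/wt library 1 had no count of Fcer1a, Il4 and Ltf, and fl/fl library 1 had none of Ltf. The part of these other cells in the values of the enzymes, and of the further genes described below, was not tested.

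Stretches of promoter are shown for some of the enzymes that were lower in every fl/fl library. They are Psat1 for serine synthesis, Shmt1 and Shmt2 as the cytosolic and mitochondrial form of one activity, and Mthfd2. Psat1 and Shmt1 passed the threshold and Shmt2 and Mthfd2 did not, while Phgdh and Mthfd1, which passed, are not shown. Each stretch is the 150 bases outside annotated exons that lead up to a RefSeq start site in GRCm38.p6. The stretches run 5′ to 3′ on the minus strand, on which the genes shown lie. Capitals mark CCAAT or, on the other strand, ATTGG, the letters of the CCAAT box. Psat1 is shown at chr19:15925060-15925209, Shmt1 at chr11:60811266-60811415, Shmt2 at chr10:127522445-127522594 and Mthfd2 at chr6:83317607-83317756.
Psat1: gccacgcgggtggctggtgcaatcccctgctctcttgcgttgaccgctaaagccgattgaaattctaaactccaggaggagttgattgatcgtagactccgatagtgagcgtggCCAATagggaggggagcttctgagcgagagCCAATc
Shmt1: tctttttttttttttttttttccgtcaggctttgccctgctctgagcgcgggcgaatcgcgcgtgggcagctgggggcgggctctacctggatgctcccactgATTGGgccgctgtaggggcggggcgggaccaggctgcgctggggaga
Shmt2: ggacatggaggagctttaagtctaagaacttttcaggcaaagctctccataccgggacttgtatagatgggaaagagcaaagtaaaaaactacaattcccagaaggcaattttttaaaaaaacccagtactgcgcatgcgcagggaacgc
Mthfd2: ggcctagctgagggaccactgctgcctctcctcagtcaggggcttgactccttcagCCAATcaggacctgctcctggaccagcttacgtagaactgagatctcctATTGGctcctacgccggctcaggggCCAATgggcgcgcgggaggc
The RefSeq table held the 250 bases before a start site for 8 of the 9 enzymes, in 9 windows, since Psat1 has a pair of start sites. The Psat1 stretch above leads up to the start of its transcript Psat1-201. The window not shown leads up to the start of transcript Psat1-205, at 15924622, and held 0 CCAAT and 1 GC box. Psat1-205 took 14.9% to 56.5% of the Psat1 counts in wt/wt and 58.8% to 64.2% in fl/fl libraries. The letters of the E-box that Myc is known to bind, CACGTG, were in 0 of the 9 windows and in 6.02% of 32851 promoters. CCAAT was found on either strand in 6 of the 9 windows, against 33.9% of all promoters. The GC box GGGCGG was found in 5 of 9, against 32.7%. The windows of Psph and Mthfd1 lie in annotated exons over all 250 bases. The amino acid response element TGATGNAA, to which ATF4 is known to bind, was in 0 of the 9, against 3.45%. No match of one motif overlapped a match of another, and a match is a description of these letters, not of a bound site. Among 9 windows, 0 is near the shares of 6.02% and 3.45%, and bases after the start sites were not searched.

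Serine synthesis starts with Phgdh, phosphoglycerate dehydrogenase, which oxidizes 3-phosphoglycerate (ENSMUSG00000053398.11, chr3:98313170-98339990 of GRCm38, minus strand). Phgdh had 274.5, 209.7 and 162.4 CPM in wt/wt libraries 1, 2 and 4 and 95.3, 98.7 and 109.4 CPM in fl/fl libraries 1, 2 and 4. The groups did not overlap, and the wt/wt libraries were spread far more widely than the others, with library 1 highest. Mean levels were 215.5 ± 56.3 and 101.1 ± 7.39 CPM (SD, n = 3 each), and Phgdh fell by 1.06 on the log2 scale (SE 0.18, with an edgeR-adjusted p of 0.0094). Without replicate 1 in both genotypes it fell short, at −0.83 with an adjusted p of 0.0391, and without replicate 2 the values were −1.04 and 0.0281, so that neither passed. Without wt/wt library 1 alone, in the fit without the replicate block, it was −0.89 and passed (adjusted p = 0.0099, edgeR).

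Psat1, phosphoserine aminotransferase, follows with nitrogen from glutamate (ENSMUSG00000024640.9, chr19:15904678-15947337, minus strand). Its level was 149.9, 116.5 and 114.8 CPM in wt/wt libraries 1, 2 and 4 against 54.0, 58.8 and 70.1 CPM in fl/fl libraries 1, 2 and 4. Every fl/fl library lay well below the lowest wt/wt library. The means were 127.1 ± 19.8 and 60.9 ± 8.30 CPM (SD, n = 3 each), so that 48.0% of the wt/wt level was left. The log2 fold change of Psat1 was −1.06 (SE 0.17, with an edgeR-adjusted p of 0.0067), and it did not pass without replicate 1 (−0.85, adjusted p = 0.0271) or without replicate 2 (−1.08, adjusted p = 0.0165).

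Psph, phosphoserine phosphatase, releases serine in the last step (ENSMUSG00000029446.14, chr5:129765558-129787449, minus strand). It had 49.2, 42.9 and 43.4 CPM in wt/wt libraries 1, 2 and 4 and 36.4, 35.3 and 30.2 CPM in fl/fl libraries 1, 2 and 4. The groups were apart by a smaller margin than for the other enzymes of this chain, with means of 45.2 ± 3.53 and 33.9 ± 3.29 CPM (SD, n = 3 each). The log2 fold change was −0.41 (SE 0.15, with an edgeR-adjusted p of 0.123), which did not pass. The span of Psph shares 452 bases with that of Cct6a on the opposite strand. The library kit keeps no strand, so reads could not be told apart where exons of both genes lie, and whether exons overlap was not examined.

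**Figure D1:**
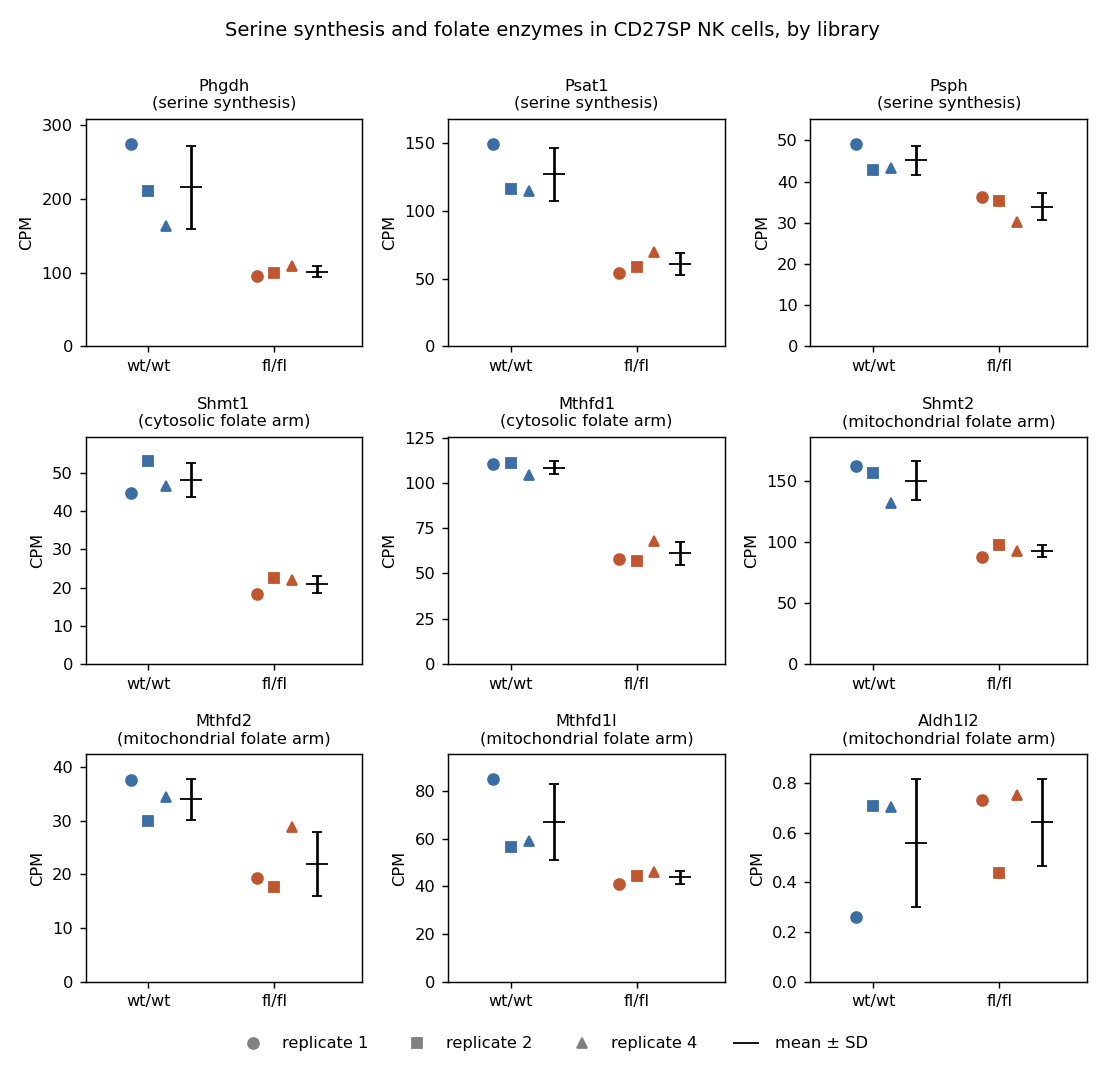
TMM-normalized CPM of each enzyme (vertical axis, from 0) in wt/wt (blue) and fl/fl (orange) libraries. Symbols mark replicates 1, 2 and 4 and bars the mean ± SD of 3 libraries. The groups are apart for 8 enzymes, as for Shmt1 at 44.8 to 53.0 against 18.3 to 22.4 CPM, and mixed for Aldh1l2.

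In the cytosol, Shmt1 is the serine hydroxymethyltransferase (ENSMUSG00000020534.14, chr11:60788104-60811718, minus strand), whose promoter is shown above. Its level was 44.8, 53.0 and 46.5 CPM in wt/wt libraries 1, 2 and 4 against 18.3, 22.4 and 21.9 CPM in fl/fl libraries 1, 2 and 4. The libraries of each genotype lay close together and the genotypes far apart, with 43.4% of the wt/wt level left. The means were 48.1 ± 4.35 and 20.9 ± 2.21 CPM (SD, n = 3 each), and the log2 fold change of −1.21 (SE 0.15, with an edgeR-adjusted p of 0.0033) was the largest fall of the 9 enzymes in this fit. Without replicate 1 it was −1.17 (adjusted p = 0.0159, edgeR) and without replicate 2 it was −1.18 (adjusted p = 0.0106), both just outside the limit. The span of Shmt1 shares 184 bases with that of Smcr8 on the opposite strand. Smcr8 had 617 to 1364 counts in fl/fl libraries and 97, 595 and 681 counts in wt/wt libraries 1, 2 and 4. These counts are not scaled for depth, and wt/wt library 1 is the shallow one.

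Mthfd1, a trifunctional protein that makes and interconverts formyl-, methenyl- and methylene-tetrahydrofolate in the cytosol (ENSMUSG00000021048.7, chr12:76255298-76319803, plus strand), also fell. It had 110.3, 110.8 and 104.5 CPM in wt/wt libraries 1, 2 and 4 and 58.3, 56.8 and 68.2 CPM in fl/fl libraries 1, 2 and 4. The spread within each genotype was small beside the gap, with means of 108.5 ± 3.49 and 61.1 ± 6.18 CPM (SD, n = 3 each). The log2 fold change was −0.83 (SE 0.14, with an edgeR-adjusted p of 0.0084). With replicate 1, 2 or 4 left out it was −0.79, −0.76 and −0.96, with adjusted p of 0.0369, 0.0369 and 0.0104, each outside the limit. The antisense gene Gm34868 overlaps 19090 bases of the Mthfd1 locus and was not analysed here.

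In mitochondria, Shmt2 splits serine (ENSMUSG00000025403.5, chr10:127517123-127522444, minus strand). It had 162.3, 156.4 and 132.2 CPM in wt/wt libraries 1, 2 and 4 against 87.7, 97.3 and 92.4 CPM in fl/fl libraries 1, 2 and 4. The groups were clearly apart, with means of 150.3 ± 15.9 and 92.4 ± 4.78 CPM (SD, n = 3 each). The log2 fold change was −0.70 (standard error 0.14) with an adjusted p of 0.0166 in edgeR, just outside the limit, and Shmt2 did pass without the replicate block, in DESeq2 and with no filter on low counts. With the limit on p relaxed to 0.05 and none on the fold change, it was the fifth enzyme lower, against 3.38% of tested genes, and no enzyme was higher, against 4.45%.

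Mthfd2, the mitochondrial methylene-tetrahydrofolate dehydrogenase and cyclohydrolase (ENSMUSG00000005667.8, chr6:83305691-83325908, minus strand), had 37.7, 30.1 and 34.4 CPM in wt/wt libraries 1, 2 and 4. In fl/fl libraries 1, 2 and 4 it had 19.4, 17.6 and 28.8 CPM, so that library 4 nearly reached the lowest wt/wt library. The means were 34.1 ± 3.81 and 22.0 ± 6.02 CPM (SD, n = 3 each), and the log2 fold change was −0.66 (SE 0.18, with an edgeR-adjusted p of 0.0601). It did not pass.

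Mthfd1l, which releases formate from formyl-tetrahydrofolate (ENSMUSG00000040675.17, chr10:3973118-4167081, plus strand), had 85.1, 56.5 and 58.9 CPM in wt/wt libraries 1, 2 and 4 and 40.8, 44.4 and 45.9 CPM in fl/fl libraries 1, 2 and 4. The shallow library 1 stood above the other wt/wt libraries. The means were 66.8 ± 15.9 and 43.7 ± 2.64 CPM (SD, n = 3 each), with a log2 fold change of −0.58 (SE 0.17, with an edgeR-adjusted p of 0.0703) that did not pass. Without replicate 1 it was −0.35.

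Aldh1l2 makes carbon dioxide and NADPH from formyl-tetrahydrofolate (ENSMUSG00000020256.14, chr10:83487450-83534140, minus strand). It stood at the edge of detection, with 0.26, 0.71 and 0.70 CPM in wt/wt libraries 1, 2 and 4 and 0.73, 0.44 and 0.75 CPM in fl/fl libraries 1, 2 and 4. The groups overlapped, and the log2 fold change of 0.09 had a standard error of 0.56 (adjusted p = 0.957, edgeR). Between 92.5% and 100% of its counts lay on Aldh1l2-204, a noncoding transcript of 2 exons from 83494740 to 83497502, and none lay on a protein-coding transcript. Aldh1l2 also shares 1056 bases with D10Wsu102e on the opposite strand, which had 2003 to 17430 counts. A difference in the coding mRNA of Aldh1l2 was not detectable at this depth.

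The transcripts of a gene differ in length, and their division matters where levels are given per length. In wt/wt library 1, 31.9% of the Phgdh counts were assigned to Phgdh-202, a transcript of 6 exons from 98321325 to 98337548, which had 0 counts in the other 5 libraries. Likewise, 83.9% of the Psat1 counts lay on Psat1-201 in that library, against 42.2% and 46.8% in the other wt/wt libraries and 33.3% to 39.0% in fl/fl libraries. Phgdh-201 alone had 185.5, 209.7 and 162.4 CPM in wt/wt and 95.2, 98.7 and 109.4 CPM in fl/fl libraries 1, 2 and 4, and the groups were apart for this transcript as well. Mthfd1-206, of 27 exons, took 29.0% to 39.2% of the Mthfd1 counts in wt/wt and 18.1% to 36.0% in fl/fl libraries, which overlap.

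**Figure D2:**
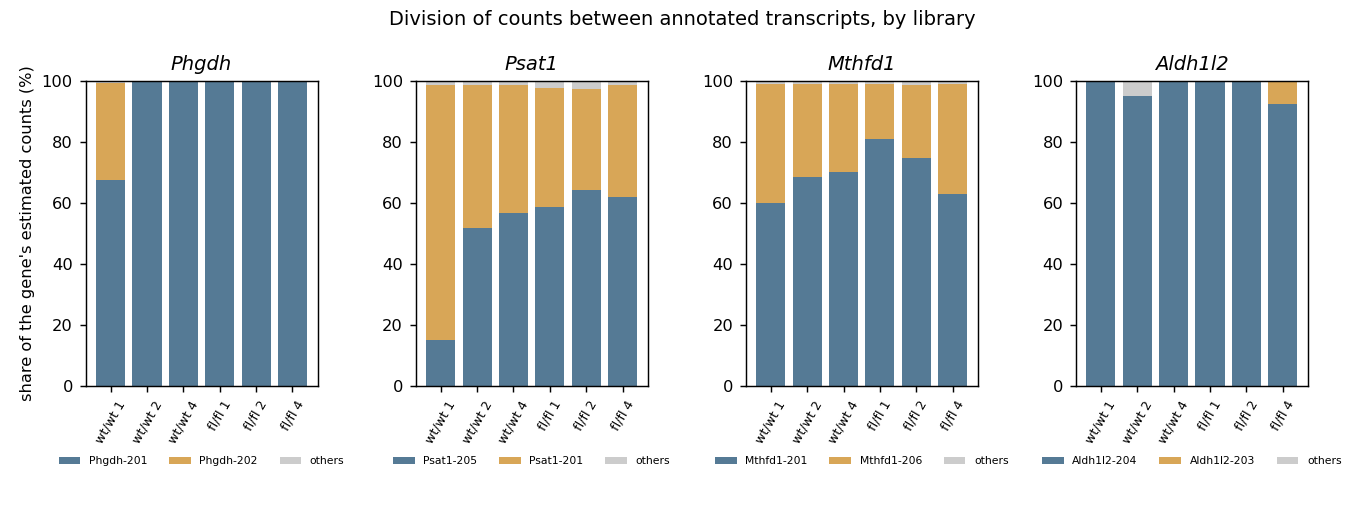
Share of a gene's estimated counts (vertical axis, percent) on its annotated transcripts, per library, for Phgdh, Psat1, Mthfd1 and Aldh1l2. wt/wt library 1 differs from the rest in Phgdh-202, with 31.9% against 0, and in Psat1-201, with 83.9%.

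Levels of different enzymes were compared per transcript length, as TPM. In wt/wt libraries the order of mean TPM was Phgdh (288 ± 224), Shmt2 (110.1 ± 11.7), Psat1 (74.6 ± 6.54), Psph (60.9 ± 1.66), Mthfd1 (51.4 ± 3.29), Shmt1 (37.2 ± 11.2), Mthfd2 (29.8 ± 3.44), Mthfd1l (27.7 ± 5.25) and Aldh1l2 (0.57 ± 0.24; SD, n = 3 each). Neighbours whose libraries overlapped were Mthfd1 with Shmt1, Shmt1 with Mthfd2, and Mthfd2 with Mthfd1l. The TPM of Phgdh was 545.3 in library 1 against 181.0 and 136.6 in libraries 2 and 4, library 1 being the one with counts on Phgdh-202. In fl/fl libraries the order of mean TPM was Phgdh (90.2 ± 5.90), Shmt2 (73.7 ± 3.93), Psph (45.7 ± 4.61), Psat1 (40.0 ± 5.14), Mthfd1 (31.3 ± 3.35), Mthfd2 (21.1 ± 5.61), Shmt1 (20.7 ± 4.98), Mthfd1l (19.4 ± 0.99) and Aldh1l2 (0.64 ± 0.18; SD, n = 3 each). Here Psph overlapped with Psat1, Mthfd2 with Shmt1, and Shmt1 with Mthfd1l.

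The mitochondrial and cytosolic forms of an activity were then set against each other within each library. The TPM of Shmt2 was 3.91, 2.43 and 2.94 times that of Shmt1 in wt/wt libraries 1, 2 and 4 and 4.65, 3.27 and 3.16 times in fl/fl libraries 1, 2 and 4. The groups overlapped, and the difference of the mean log2 ratio, fl/fl minus wt/wt, was 0.26 (two-sided exact permutation test, p = 0.4). On estimated counts, which carry no length, the Shmt2 to Shmt1 ratio did not overlap between the genotypes and differed by 0.51 on the log2 scale (two-sided exact permutation test, p = 0.1, the smallest that 3 against 3 libraries can give). The TPM of Mthfd1l was 0.69, 0.45 and 0.49 times that of Mthfd1 in wt/wt libraries 1, 2 and 4 and 0.61, 0.68 and 0.58 times in fl/fl libraries 1, 2 and 4. These values overlapped too, with a difference of 0.22 on the log2 scale (two-sided exact permutation test, p = 0.4), which was 0.41 without replicate 1 and 0.03 without replicate 2.

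The summed TPM of the mitochondrial arm was 2.31, 1.64 and 1.84 times that of the cytosolic arm in wt/wt libraries 1, 2 and 4 and 2.39, 2.18 and 2.10 times in fl/fl libraries 1, 2 and 4. The library with the highest value of the first group lay within the range of the second. On estimated counts the ratio was 1.84, 1.49 and 1.498 against 1.94, 2.02 and 1.86, and there the genotypes did not overlap. The mean log2 ratio differed by 0.22 on TPM and by 0.28 on estimated counts, given without a test because the sum runs over chosen genes, and on TPM it differed by 0.12 without replicate 2. Whether the genotypes were apart in the balance of the arms thus depended on the unit, and 3 against 3 libraries could not have reached a p below 0.1 in either.

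**Figure D3:**
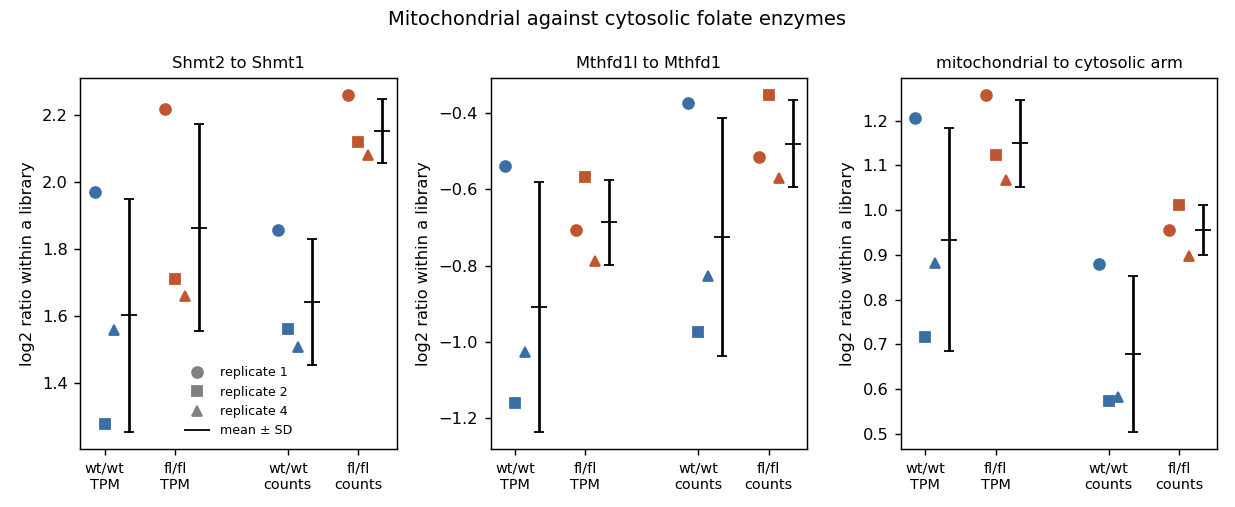
Log2 ratio within each library (vertical axis, not from 0) of Shmt2 to Shmt1, of Mthfd1l to Mthfd1 and of the summed mitochondrial to the summed cytosolic enzymes, on TPM and on estimated counts. Symbols mark replicates 1, 2 and 4 and bars the mean ± SD of 3 libraries. On TPM the genotypes overlap in each panel, and on counts they are apart for Shmt2 to Shmt1 (mean 1.64 against 2.15) and for the arms (0.68 against 0.96).

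Around these enzymes, 43 further genes of serine and one-carbon metabolism were examined, of which 35 had enough counts for a test. 3 of the 35 fell past the threshold and none was higher past it, against 0.872% and 1.28% of tested genes. At an unadjusted p below 0.05 in edgeR 9 were lower and 1 was higher, against 10.2% and 12.4% of tested genes, and DESeq2 called 5, all lower, against 3.54%. Their median log2 fold change was −0.12. For 12 of the 35 every fl/fl library lay below every wt/wt library and for 5 it lay above, against 15.1% and 16.2% of tested genes.

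Of the 8 other folate cycle enzymes tested, Atic passed, which closes the purine ring with formyl-tetrahydrofolate. Atic had 45.2, 33.0 and 31.8 CPM in wt/wt libraries 1, 2 and 4 and 15.4, 17.6 and 15.3 CPM in fl/fl libraries 1, 2 and 4. The groups were far apart, and the log2 fold change was −1.17 (SE 0.18, with an edgeR-adjusted p of 0.0068). With replicate 1, 2 or 4 left out, Atic had −0.98, −1.29 and −1.24 and adjusted p of 0.0293, 0.0115 and 0.0101, outside the limit. Tyms, thymidylate synthase, was at 103.2 to 122.5 against 60.1 to 71.3 CPM, a log2 fold change of −0.74 that did not pass (adjusted p = 0.0131, edgeR). The groups of Tyms did not overlap, and Tyms did pass without the replicate block, in DESeq2 and with no filter on low counts.

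None of 5 genes of folate transport and polyglutamation passed, whereas 1 was lower at an unadjusted p below 0.05 in edgeR, against 10.2% of tested genes, and 1 past the threshold in DESeq2 (Slc19a1), against 3.54%. Slc19a1, the reduced folate carrier of the cell surface, had 47.3, 43.9 and 40.2 CPM in wt/wt and 19.1, 26.0 and 24.6 CPM in fl/fl libraries 1, 2 and 4, a log2 fold change of −0.92 with an adjusted p of 0.0139 in edgeR. Fpgs, which adds glutamates to folate, had a log2 fold change of −0.26 (adjusted p = 0.489). Among 3 glycine cleavage genes, Gcsh, the lipoyl carrier of the complex, passed with 39.9, 41.7 and 42.1 against 19.0, 24.0 and 23.1 CPM and a log2 fold change of −0.91 (SE 0.16, with an edgeR-adjusted p of 0.0095). With replicate 1, 2 or 4 left out, Gcsh had −0.83, −0.95 and −0.95 but did not pass (adjusted p of 0.0404, 0.0255 and 0.0259), nor did it without the block and wt/wt library 1 (−0.94, adjusted p = 0.01004). Dld, shared with other dehydrogenase complexes, had −0.22 (adjusted p = 0.382). Gldc, which cleaves glycine, had no count in any library, which allows up to 0.046 CPM in the deepest and 0.39 CPM in the shallowest library at 3 counts, for counting error only.

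None of 7 methionine cycle genes passed in edgeR or DESeq2, and 2 were lower at an unadjusted p below 0.05 in edgeR, against 10.2% of tested genes. Ahcy, which hydrolyses S-adenosylhomocysteine, had a log2 fold change of −0.46 (adjusted p = 0.0928, edgeR) and Mat2a, the S-adenosylmethionine synthetase, −0.34 (adjusted p = 0.158). None of 5 genes of transsulfuration and serine use passed in edgeR or DESeq2, and 1 was higher at an unadjusted p below 0.05 in edgeR, against 12.4% of tested genes. Sdsl, a serine dehydratase-like protein, had 0, 0.74 and 0.99 CPM against 2.08, 2.40 and 2.14 CPM in libraries 1, 2 and 4, with an adjusted p of 0.0844. Sptlc1, a subunit of the enzyme that starts sphingolipids from serine, had a log2 fold change of 0.22 (adjusted p = 0.390). Cbs and Sds had at most 3 counts in any library.

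Of 7 serine transporters, Sfxn1, which carries serine into mitochondria, passed. It had 182.0, 149.6 and 150.2 CPM in wt/wt libraries 1, 2 and 4 and 88.3, 93.5 and 75.7 CPM in fl/fl libraries 1, 2 and 4, well apart. The log2 fold change of Sfxn1 was −0.90 (SE 0.14, with an edgeR-adjusted p of 0.0062), and with replicate 1, 2 or 4 left out it was −0.83, −1.01 and −0.88 but did not pass (adjusted p of 0.0283, 0.0113 and 0.0188). Without the block and wt/wt library 1, Sfxn1 passed (−0.82, adjusted p = 0.0089, edgeR). Slc38a1, an amino acid transporter of the cell surface, had −0.26 (adjusted p = 0.312).

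**Figure D4:**
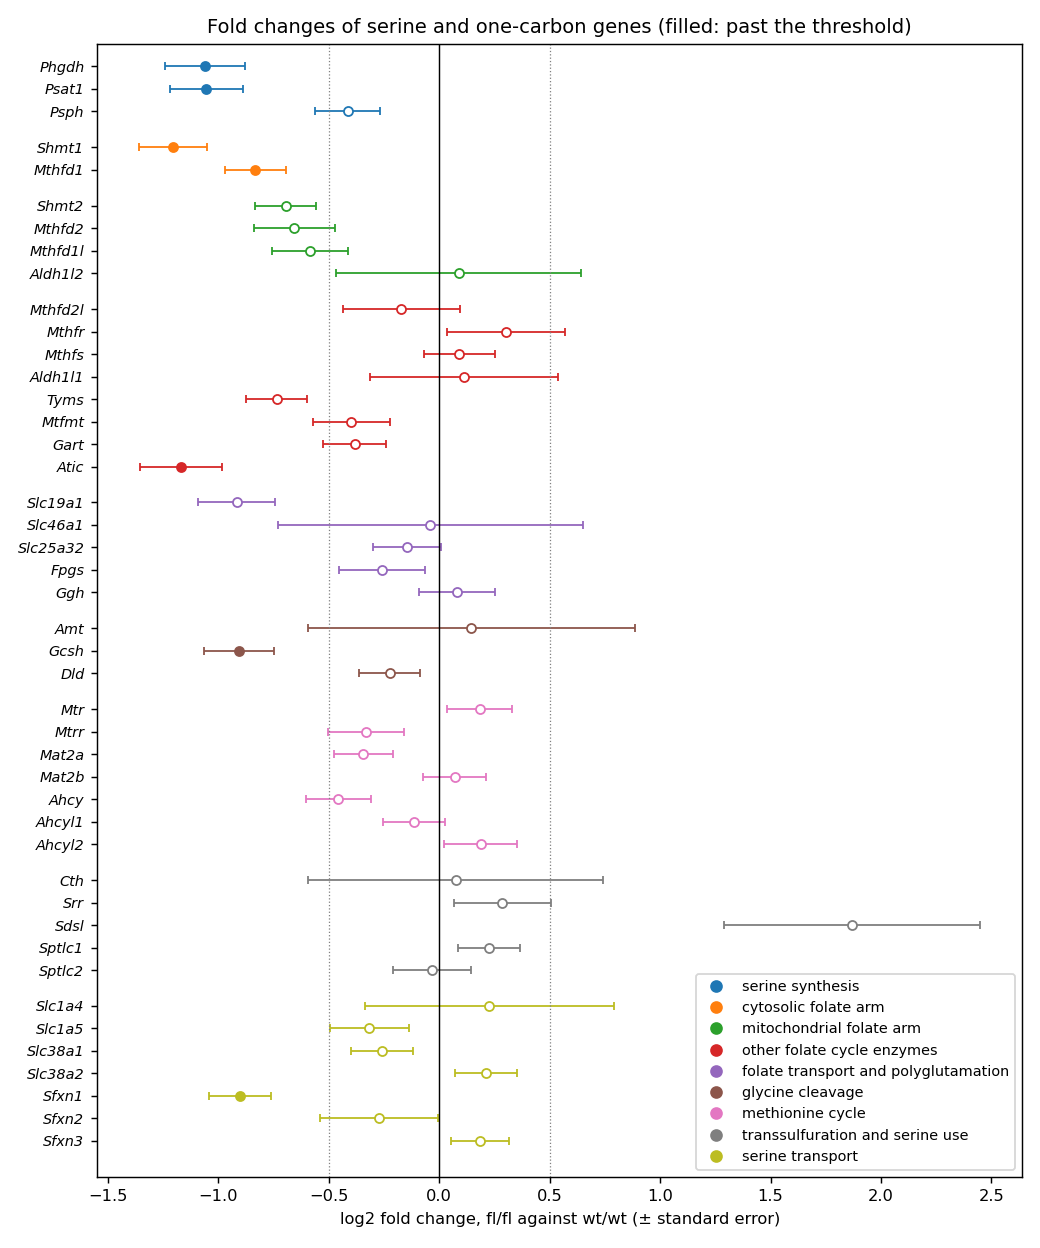
Log2 fold change of fl/fl against wt/wt (horizontal axis, bars ± standard error, edgeR with the replicate block) for the 9 enzymes and 35 further genes, coloured by group. Filled points passed the threshold, dotted lines mark 0.5 in both directions, and the 7 filled points (Phgdh, Psat1, Shmt1, Mthfd1, Atic, Gcsh and Sfxn1) are all to the left.

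ATF4 and genes it is known to drive were counted as well, since serine synthesis enzymes are among its textbook targets. Of 12 tested, 2 were higher and 0 lower past the threshold, against 1.28% and 0.872% of tested genes. At an unadjusted p below 0.05, 3 were higher and 0 lower, against 12.4% and 10.2%, and DESeq2 also called 2 higher and 0 lower, against 4.17% and 3.54%. For 6 of the 12 every fl/fl library lay above every wt/wt library and for 0 it lay below, against 16.2% and 15.1% of tested genes. Asns, asparagine synthetase, had 3.12, 2.22 and 3.28 against 11.9, 11.3 and 15.4 CPM, a log2 fold change of 2.19 (SE 0.24, with an edgeR-adjusted p of 0.0020). Atf3, another stress factor, had 1.95, 3.08 and 7.37 against 13.03, 15.4 and 126.4 CPM, with library 4 of fl/fl far above the rest and no overlap between the groups. The log2 fold change of Atf3 was 3.13 (adjusted p = 0.0019, edgeR) and 2.47 without replicate 4. Atf3 did not pass without the block and wt/wt library 1, where it was at 3.29 with an adjusted p of 0.102. Atf4 itself had 93.0 to 108.1 against 112.3 to 142.8 CPM, which do not overlap, and a log2 fold change of 0.34 that did not pass (adjusted p = 0.147).

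The direction of the 8 lower enzymes was kept in the alternative fits, whereas the number past the threshold was not. Of the 9 enzymes 5 passed without the replicate block, where 1.19% of tested genes were lower past the threshold, and 5 in DESeq2, where 3.54% were. Without the block and without wt/wt library 1, 4 passed, again Phgdh, Psat1, Shmt1 and Mthfd1, against 0.814%. With both libraries of replicate 1 left out 0 passed, against 0.0636% of tested genes, although 8 enzymes still were at a log2 fold change between −0.35 and −1.17. By the largest adjusted p of edgeR, DESeq2 and limma-trend, the rule of the study's methods, 2 passed (Psat1 and Shmt1), against 0.64% of tested genes. Phgdh (adjusted p = 0.0119) and Mthfd1 (adjusted p = 0.0111) lost their call there and in limma-trend alone, and with library size only Shmt1 alone passed. In limma-trend 0.64% and with library size only 0.162% of tested genes were lower past the threshold, and with no filter on low counts, where 5 enzymes passed, 1.83% were. Without replicate 2, 0 passed, against 0.3%, and without replicate 4, 3 did, Mthfd1 being lost, against 0.735%. With offsets from effective transcript lengths 0 passed, against 0.0517%, although Phgdh then had a log2 fold change of −1.46.

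**Figure D5:**
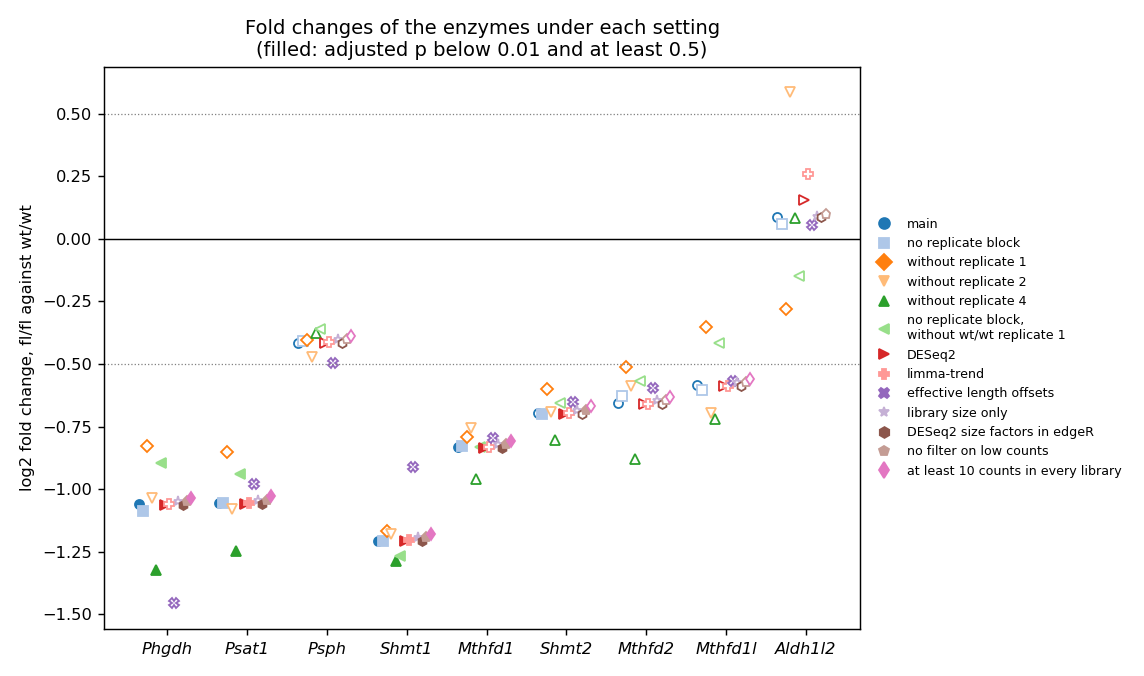
Log2 fold change of each enzyme (vertical axis, fl/fl against wt/wt) under the main fit and each alternative, with filled symbols where the adjusted p was below 0.01 and the change at least 0.5 on the log2 scale. 8 enzymes lie below 0 under each of the settings drawn, and Aldh1l2 lies on both sides.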

How the data were processed

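RNA had been prepared by the authors with a SMART-Seq v4 kit, which keeps no strand, and sequenced single end. The deposited tables give for each mouse transcript an estimated count (not normalized), a TPM value and an effective length. Their columns are those of kallisto, although Salmon and a human transcriptome are stated, so the quantifier and its length correction are uncertain. The estimated counts of a gene symbol were added up with GENCODE M21 (GRCm38) as the map and rounded. Genes kept by edgeR's filterByExpr (15474) were normalized by TMM and compared by the quasi-likelihood test of edgeR (4.0.16, R 4.3.3) blocked on the replicate number, since the study describes a paired comparison. Benjamini-Hochberg adjustment ran over all tested genes, with limits of 0.01 and a log2 fold change of 0.5. Ratios were compared by exact permutation tests in SciPy 1.17.1, which measure only the spread between these 3 libraries per genotype. DESeq2 (1.42.0), limma-trend (limma 3.58.1), other scalings, filters and omissions were alternatives. The methods' rule, the largest adjusted p of the 3 tools, was one of them. The 9 enzymes, the lists and the tests were chosen with earlier results of these data known. The text names all 9 enzymes and, of the other pathway genes, those past the threshold and otherwise the 2 of smallest adjusted p per group. Gldc, Cbs, Sds, Asns, Atf3 and Atf4 were named after their values were seen. Libraries within a genotype were distinct, since their chi-square over degrees of freedom was 39.4 to 100.1. A few further genes were left out of the lists and their counts and are not reported here. The tests were tried on simulated data. Deposited effective lengths entered one alternative only. Promoter sequences are RefSeq's (GRCm38.p6).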

Additional observations from a re-analysis of the deposited data

How the results depend on the processing

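The numbers 1, 2 and 4 were not shown to pair the mice, since the deviations of same-numbered libraries from their genotype means correlated at −0.005, −0.066 and 0.084, below the limit of 0.1. Without the replicate block 5 enzymes and 5 other pathway genes were lower past the threshold, against 4 and 3 with it. The shares of all tested genes lower past it were 1.19% without the block and 0.872% with it. An exact test of the log2 ratios within same-numbered pairs gave p = 0.25, the smallest that 3 pairs allow, for Shmt2 to Shmt1 and p = 0.5 for Mthfd1l to Mthfd1. Leaving out 1 replicate number gave 0 to 3 enzymes and 0 other genes lower. The count of enzymes was 0 with effective length offsets, 1 with library size only, 2 in limma-trend and 2 by the largest adjusted p of 3 tools, against 0.0517%, 0.162%, 0.64% and 0.64% of tested genes, and the other genes then numbered 0, 0, 2 and 2. DESeq2, no filter on low counts and an adjusted p below 0.05 each gave 5 other genes lower, against 3.54%, 1.83% and 3.38% of tested genes. Aldh1l2 changed sign, ranging from −0.28 (without replicate 1) to 0.59 with 1 replicate number left out, and at −0.15 without the block and wt/wt library 1, and had no value at a minimum of 10 counts in every library. For the single enzymes, 99 values kept direction and side of the threshold, 20 lost it and 4 gained it. The cause of these changes was not tested. Psph, Mthfd2 and Mthfd1l did not pass under any setting tried, and the shallow wt/wt library 1 limits what 3 libraries per genotype resolve.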
